A study of Sus scrofa with 28 samples.

Results

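The comparison set the apical lobe of the left lung against the caudal lobe of the same animal in swine that had inhaled sulfur mustard vapor. All arrays labelled low or medium exposure and apical or caudal lobe were taken from the animals that had both lobes, which gave 10 of the 28 arrays in the series and 5 of its 10 animals. Animals 31, 32 and 33 had received the low dose of 60 µg/kg, and animals 34 and 42 the medium dose of 100 µg/kg. Medium animals 39 and 41 were left out, because animal 39 had no caudal array and animal 41 had no apical array. Air animals 28, 29 and 44 had all lobes and served as the background, so the fit held 24 arrays of 8 animals.

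All animals were female swine that were anesthetized and intubated, lay supine, and inhaled vapor or air for 10 min. The lobes were dissected 12 h later and kept in RNAlater, and each lobe of each animal gave 1 array of total RNA on the Affymetrix porcine array. The labels named no breed, age, scan date or batch, so no batch could be examined. A lobe's RNA was a mixture of airway, alveolar, vessel and blood cells. In such bulk samples, fewer cells of a type and less RNA per cell cannot be told apart.

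Sulfur mustard is an alkylating agent that damages DNA, proteins and membranes, and inhaled vapor injures chiefly the lining of the airways. Cells answer alkylation with DNA repair and p53 target genes, and injured epithelium with stress, wound repair and growth genes. The apical lobe lies toward the head and the caudal lobe toward the diaphragm. Ventilation, blood flow and airway length differ between them, so inhaled vapor need not reach both alike.

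The 10 arrays had median signals from 57.7 to 62.1, and each correlated on average at 0.974 to 0.982 with the other arrays of the series. Lung markers were bright in all 10: the signal of surfactant protein gene SFTPC ranged from 2761 to 3184, SFTPA1 from 1222 to 1901, SFTPD from 873 to 1501, SFTPB from 442 to 887 and the alveolar type 1 marker AGER from 451 to 963. No probe set carried CLDN18, NKX2-1 or the club cell marker SCGB1A1 as its only symbol. An index of RNA integrity, taken from the control probe sets at the 3′ and 5′ ends of actin and GAPDH (log2 ratio, averaged) and higher where RNA is less intact, was lower in the apical lobe of 4 of the 5 exposed animals. Its apical minus caudal difference was -0.46, -0.33, -0.01, 0.01 and -0.21 in animals 31, 32, 33, 34 and 42, a mean of -0.20 (SD 0.21, n = 5, exact sign-flip test p = 0.188, two-sided). With 5 animals that test cannot give a p below 0.0625. In the air animals the mean was -0.16 (SD 0.48, n = 3), and exposed and air animals differed by -0.04 (exact permutation test p = 0.893, two-sided, 56 splits).

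Values below are apical minus caudal differences on the log2(signal + 16) scale, as the mean over the 5 exposed animals ± the standard error from limma. The scale understates the differences of dim genes. A probe set was called at an adjusted p under 0.05 over the 23999 probe sets tested. Signals are quantile-normalized array units and are listed in the order of animals 31, 32, 33, 34 and 42. Overlap of the lobes was examined for named genes only, so its share over all probe sets is not known. Many of these genes were picked for a small p, which favours lobes that do not overlap. Each animal gave 1 array per lobe, so precision is limited by how few arrays there were.

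Apical and caudal lobes of exposed animals differed at the threshold in 2 of 23999 probe sets (0.00833%), both higher in the apical lobe and both without a gene symbol in the annotation used here. Probe set Ssc.4319.1.A1_at had apical signals of 440, 429, 624, 327 and 261 and caudal signals of 279, 179, 354, 128 and 120. The apical signal was the higher in each of the 5 animals, although the groups overlapped, and both lobes were dimmer in the medium than in the low animals. Its difference was 0.98 ± 0.13 (limma adjusted p = 0.0206), 0.87 in the low and 1.14 in the medium animals. In the air animals it was 0.55 ± 0.16, with the apical signal higher in 3 of 3. Probe set Ssc.7117.1.A1_a_at had apical signals of 569, 408, 414, 248 and 185 and caudal signals of 354, 208, 267, 120 and 73.3. It too was higher in the apical lobe of each animal with overlapping groups, and rose with a difference of 0.87 ± 0.12 (limma adjusted p = 0.0206), against 0.39 ± 0.15 in air animals. The median lobe lay between the other lobes in all 5 exposed animals for the first probe set and in animals 32, 33, 34 and 42 for the second.

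These calls depended on which animals were in the fit. The count was 92 without animal 31 (34 higher and 58 lower in the apical lobe), 9 without animal 33 and 1 without animal 42. It was 0 without animal 32, without animal 34, and without any 1 of air animals 28, 29 or 44, which add only to the estimate of spread.

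At an unadjusted p under 0.05 there were 3155 probe sets (13.1%), where 1200 would be the mean with no difference anywhere. Of these, 1447 (6.03% of all) were higher and 1708 (7.12%) lower in the apical lobe, so 45.9% were higher. That split depended on the scaling: it was 50.8% higher with the authors' own scaling and 33.5% (1050 against 2085) with arrays centred on their medians. In all 5 animals alike, 1123 probe sets (4.68%) were higher and 1384 (5.77%) lower. The median over all probe sets was -0.0034.

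**Figure D1:**
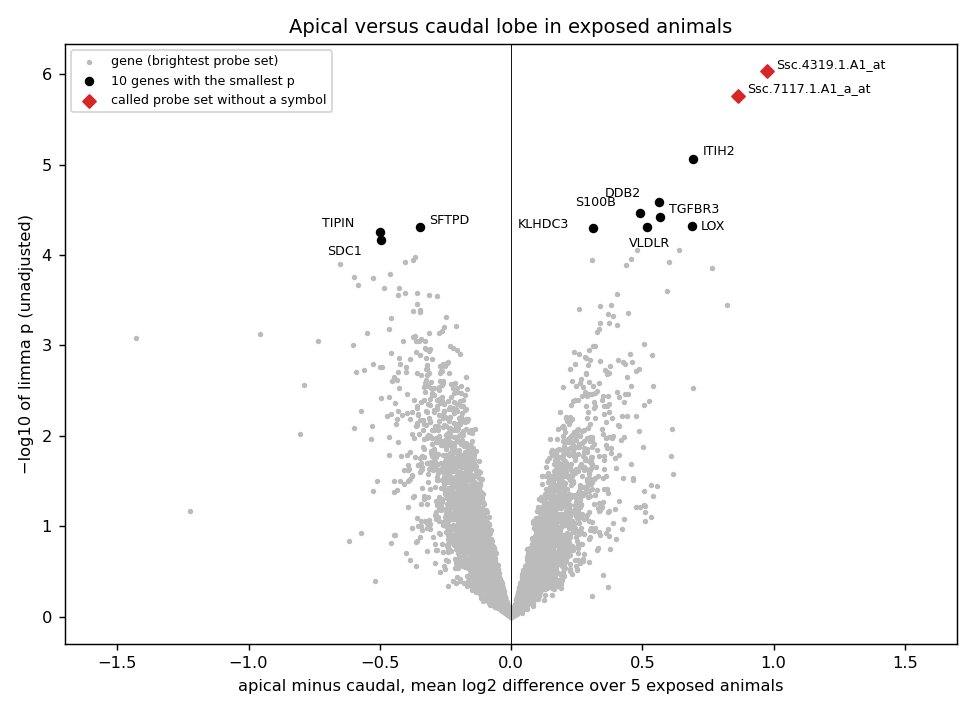
Each point is a gene by its brightest probe set, with the mean apical minus caudal log2 difference over 5 exposed animals on the x axis and −log10 of the unadjusted limma p on the y axis; black points are the 10 genes with the smallest p and red diamonds the 2 called probe sets without a symbol. The red diamonds at 0.98 and 0.87 stand above all named genes, of which ITIH2 at 0.69 is the next.

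No gene with a symbol was called. The 10 genes with the smallest p all had an adjusted p of 0.0609, and each had the same direction in all 5 exposed animals. Of these, 7 were higher in the apical lobe (ITIH2, DDB2, S100B, TGFBR3, LOX, VLDLR and KLHDC3) and 3 lower (SFTPD, TIPIN and SDC1).

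ITIH2 encodes a heavy chain of inter-alpha-trypsin inhibitor, which binds hyaluronan in the matrix. Its apical signals were 93.1, 82.2, 97.2, 28.9 and 48.1 and its caudal signals 63.3, 46.2, 46.6, 17.0 and 14.8. The groups overlapped because the medium animals were dimmer in both lobes. The difference was 0.69 ± 0.11, and 0.27 ± 0.14 in air animals, where caudal signals were 42.6, 43.6 and 42.5.

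DDB2, a p53 target that recognizes DNA lesions for nucleotide excision repair, had apical signals of 55.7, 57.7, 57.8, 50.9 and 49.0. Its caudal signals were 37.3, 44.4, 19.8, 28.2 and 31.5, so the lobes did not overlap. The difference was 0.56 ± 0.10 in exposed and -0.03 ± 0.12 in air animals. Apical signals of exposed animals were close to those of air animals (53.1, 53 and 46.8), while 4 of the 5 caudal signals lay below the air caudal signals of 55.8, 61.3 and 41.8. The exposed minus air difference was 0.60 ± 0.16 and did not pass over all probe sets. The other DDB2 probe sets were dimmer and differed in sign, at 0.32 ± 0.15 and -0.24 ± 0.15, so the gene's direction rests on its brightest probe set.

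LOX, which cross-links collagen and elastin, had apical signals of 356, 278, 269, 325 and 334 and caudal signals of 189, 146, 240, 260 and 130. The lobes did not overlap, and the difference was 0.69 ± 0.12 against 0.18 ± 0.16 in air. A second probe set of LOX, near the array's floor, differed by 0.06 ± 0.06. TGFBR3, the co-receptor betaglycan that presents TGF-beta to its receptors, differed by 0.57 ± 0.10 and by 0.31 ± 0.13 in air. Its apical signals of 145, 91.8, 157, 69.0 and 131 overlapped with caudal signals of 84.6, 65.8, 75.1, 56.1 and 80.9.

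S100B, a calcium-binding protein, had apical signals of 405, 396, 474, 311 and 234 and caudal signals of 358, 255, 334, 199 and 150. Animals 32, 33, 34 and 42 differed by 0.48 to 0.60 and animal 31 by 0.17, and the mean was 0.49 ± 0.09. VLDLR, a receptor for triglyceride-rich lipoproteins, differed by 0.52 ± 0.09, with 0.20 in animal 33 and 0.92 in animal 42. KLHDC3, a substrate adaptor of a ubiquitin ligase, differed by 0.31 ± 0.06 in exposed and 0.28 ± 0.07 in air animals.

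Surfactant protein D, encoded by SFTPD and a lectin that binds microbes in the alveolar lining, was lower in the apical lobe. Its signals were 873, 1227, 1153, 1028 and 1103 in the apical and 1208, 1501, 1349, 1310 and 1480 in the caudal lobe, with only animal 32's apical signal above the lowest caudal one. The difference was -0.35 ± 0.06, with a range over animals from -0.46 to -0.22, and 0.01 ± 0.08 in air. A dimmer probe set of SFTPD differed by -0.31 ± 0.12. The median lobe of these animals had signals from 1398 to 1447.

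SDC1, the heparan sulfate proteoglycan syndecan-1 of epithelial surfaces, had apical signals of 320, 406, 343, 309 and 292. Caudal signals were 408, 660, 422, 498 and 421, so the lobes did not overlap, though narrowly. The difference was -0.49 ± 0.09 in exposed and -0.08 ± 0.12 in air animals. The next brightest SDC1 probe set differed by -0.31 ± 0.15, and the remaining dimmer ones by 0.01 and 0.04. TIPIN, which stabilizes replication forks, differed by -0.50 ± 0.09 and by -0.13 ± 0.12 in air.

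**Figure D2:**
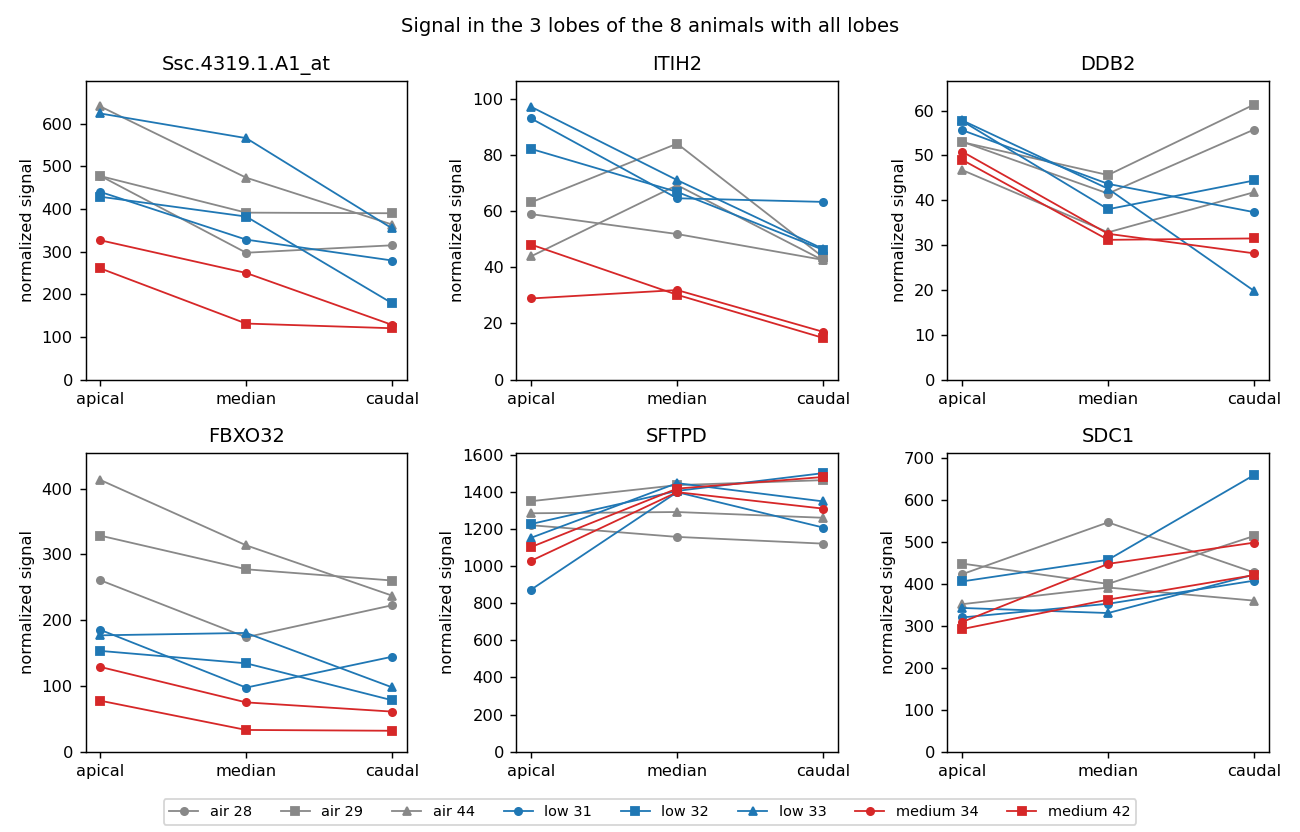
Normalized signal (y axis, array units, from 0) in the apical, median and caudal lobe of each of the 8 animals with all lobes, 1 line per animal; grey is air, blue low and red medium dose. DDB2 and SDC1 separate apical from caudal in the 5 exposed animals, and the lines of SFTPD differ mainly in the apical lobe.

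FBXO32, the muscle ubiquitin ligase atrogin-1, had apical signals of 185, 153, 177, 129 and 77.5 and caudal signals of 144, 78.1, 97.7, 60.9 and 31.7. Every animal was higher in the apical lobe, and all 10 signals lay below the air signals of 223 to 413 in the same lobes. The difference was 0.76 ± 0.15 (limma adjusted p = 0.0671), and 0.43 ± 0.20 in air. A dimmer probe set of the gene differed by 0.86 ± 0.14 (limma adjusted p = 0.0609).

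Further genes with adjusted p from 0.0653 to 0.0981 and the same direction in all 5 animals were examined after their values were seen. Higher in the apical lobe were PIK3IP1, an inhibitor of PI3 kinase (0.64 ± 0.12), HIP1R of clathrin coats (0.48 ± 0.09), SELENBP1, a selenium-binding oxidase (0.60 ± 0.12), and the tight junction gene CLDN11 (0.82 ± 0.18). The lobes did not overlap for any of these 4, but the share of all probe sets without overlap was not counted. For HIP1R the gap was very narrow, with 132.03 in the apical lobe of animal 34 and 131.98 in the caudal lobe of animal 32. CLDN11 had apical signals of 666, 695, 930, 666 and 927 and caudal signals of 600, 359, 652, 211 and 468. The caudal signals spread the wider, and the difference ran from 0.15 in animal 31 to 1.59 in animal 34.

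Lower in the apical lobe, and likewise not called, were NOC2L (-0.37 ± 0.07), WDR74 (-0.41 ± 0.08), PAK1IP1 (-0.58 ± 0.12) and GRWD1 (-0.48 ± 0.10), each known for a part in ribosome assembly. They were picked singly for their values and not as a list. Also lower were METTL1, a tRNA methyltransferase (-0.43 ± 0.09), ABCF2 (-0.37 ± 0.07) and PNPT1, a mitochondrial RNA-processing enzyme (-0.52 ± 0.11). NOC2L had differences between -0.43 and -0.30 in the 5 animals, but a dimmer probe set of the gene differed by -0.07 ± 0.09, with 0.17 in animal 32, and the mean of both was -0.22. Its brighter probe set's apical signals of 62.6, 81.0, 52.2, 65.3 and 102 nevertheless overlapped with caudal signals of 83.7, 104, 75.9, 91.6 and 136.

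None of the 10 injury and stress genes chosen for every comparison passed. CDKN1A, the p53-induced cell cycle inhibitor, differed by -0.11 ± 0.10, the immediate early genes FOS and DUSP1 by 0.19 ± 0.22 and 0.11 ± 0.09, the heme oxygenase gene HMOX1 by 0.10 ± 0.11, and SFTPC by -0.02 ± 0.05. The neutrophil chemokine CXCL8 differed by 0.30 ± 0.15, with -0.40 in animal 32 and 0.70 in animal 42. IL6 differed by -0.01 ± 0.13. The limma adjusted p of these 7 genes ranged from 0.424 to 0.982.

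F3, tissue factor that starts coagulation, had apical signals of 652, 652, 507, 605 and 1210 and caudal signals of 609, 1155, 690, 1347 and 829. Animals 32, 33 and 34 were lower and animals 31 and 42 higher in the apical lobe, and the difference was -0.35 ± 0.22 (limma adjusted p = 0.53). TNFRSF12A, the TWEAK receptor of injured tissue, had apical signals of 183, 101, 85.2, 241 and 279 and caudal signals of 153, 362, 197, 613 and 327. It was lower in the apical lobe of 4 animals and higher in animal 31, and its difference of -0.81 ± 0.27 did not pass (limma adjusted p = 0.224). A second probe set differed by -0.39 ± 0.19.

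**Figure D3:**
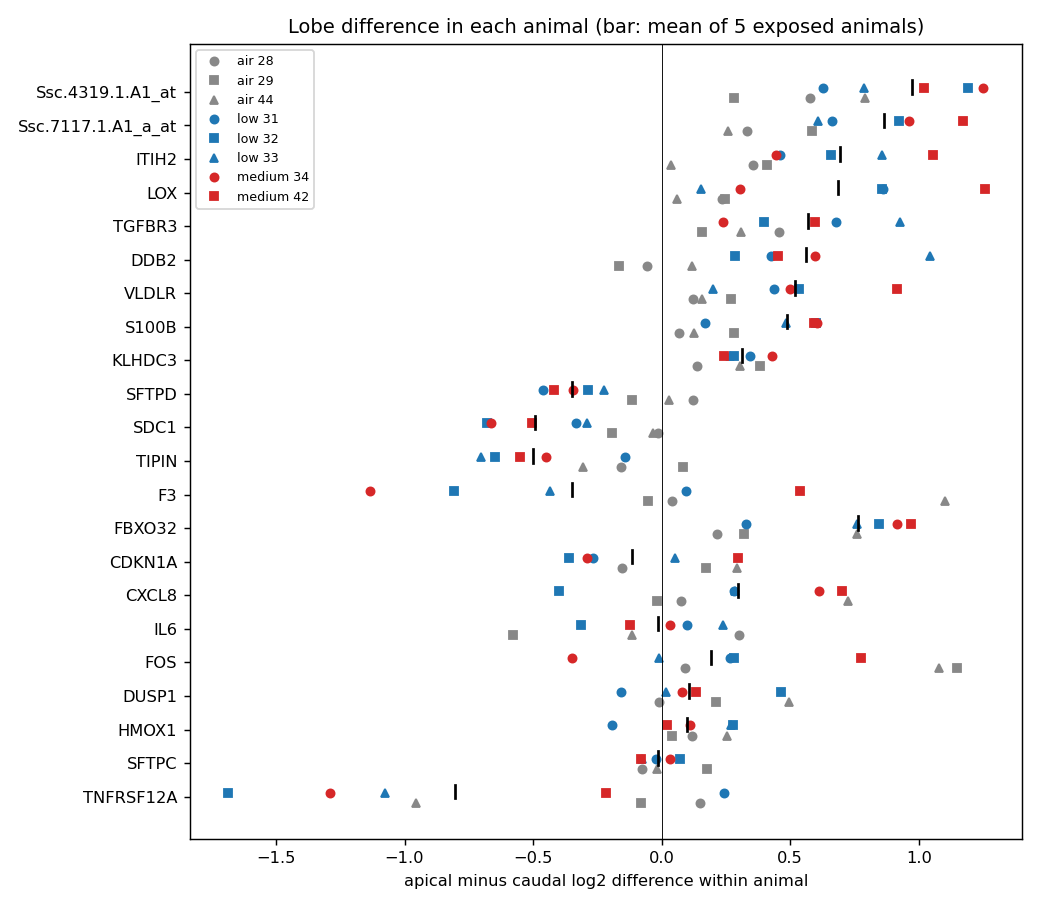
Apical minus caudal log2 difference (x axis) of each animal for the 2 called probe sets, the 10 genes with the smallest p and the 10 injury and stress genes; colour gives the exposure, and the black bar is the mean of the 5 exposed animals. The points of F3, FOS, CXCL8 and CDKN1A lie on both sides of 0, and animal 31 is the exposed point nearest 0 for S100B, FBXO32 and TIPIN.

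Sterol synthesis was the list with the lowest median. Cells make cholesterol through the mevalonate pathway, and the transcription factor SREBF2 drives most of its enzymes. Of 16 measured genes, 15 had a mean difference below 0, and the median was -0.32, against -0.0034 over all probe sets and -0.05 for the same genes in air animals. None was called; 10 (62.5%) were lower at an unadjusted p under 0.05, where 7.12% of all probe sets were.

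CYP51, a demethylase of the pathway, led the list at -0.46 ± 0.09 (limma adjusted p = 0.0712) and was lower in 5 of 5 animals. Its apical signals were 619, 401, 533, 628 and 450 and its caudal signals 638, 612, 866, 775 and 740. Animal 31 had nearly the same signal in both lobes, with a difference of -0.04, and the other animals ranged from -0.70 to -0.30. HMGCS1, an early enzyme of the pathway, had apical signals of 333, 231, 360, 330 and 237 and caudal signals of 271, 437, 596, 520 and 466. FDPS, which makes farnesyl diphosphate, had apical signals of 344, 232, 262, 289 and 180 and caudal signals of 286, 389, 456, 595 and 309. For both genes animal 31 was higher in the apical lobe, and the other 4 were lower. Their differences were -0.57 ± 0.18 and -0.59 ± 0.16 (limma adjusted p = 0.194 and 0.146).

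Squalene epoxidase SQLE (-0.32 ± 0.08), MSMO1 (-0.36 ± 0.09), NSDHL (-0.36 ± 0.10) and SREBF2 itself (-0.32 ± 0.10) were lower in the apical lobe of 5 of 5 animals. A dimmer MSMO1 probe set differed by -0.17 ± 0.14. INSIG2, which holds back activation of SREBF2, was the only member above 0, at 0.20 ± 0.11. The exposed minus air difference had a median of -0.26, and 1 of the 16 genes was at an unadjusted p under 0.05, where 3.78% of all probe sets were. In air animals SREBF2 differed by -0.29 and CYP51 by -0.09 ± 0.12. The list's median was below 0 in animals 32, 33, 34 and 42, at -0.44, -0.46, -0.52 and -0.17, and 0.08 in animal 31.

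**Figure D4:**
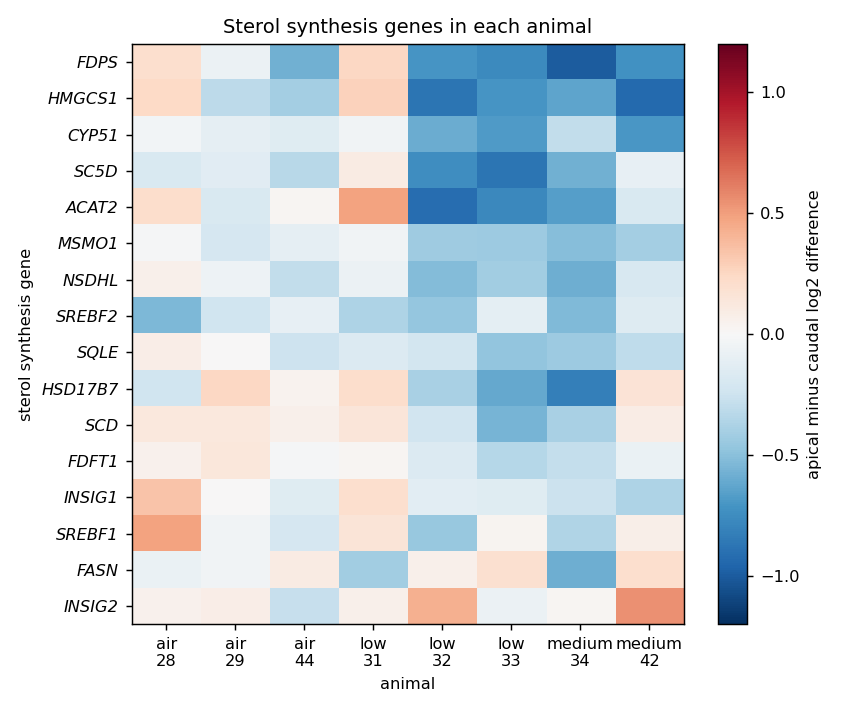
Apical minus caudal log2 difference of each of the 16 measured sterol synthesis genes (rows) in each of the 8 animals (columns); blue is lower and red higher in the apical lobe. Animals 32, 33 and 34 are blue for most genes, while FDPS, HMGCS1 and ACAT2 are red in animal 31.

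The list of the unfolded protein and amino acid response was split, with 9 of 19 measured genes above and 10 below 0 and a median of -0.08, against -0.07 in air. At an unadjusted p under 0.05, 7 were lower and 1, VLDLR, higher (42.1%, against 13.1% of all probe sets), and none was called. PYCR1, which makes proline, had apical signals of 102, 57.5, 56.7, 67.7 and 64.0 and caudal signals of 81.7, 178, 122, 215 and 176. Its difference was -0.95 ± 0.23 (limma adjusted p = 0.12), with animal 31 the only one higher in the apical lobe. PHGDH, the first enzyme of serine synthesis, differed by -0.79 ± 0.22 in exposed and 0.44 ± 0.29 in air animals, and by -1.23 ± 0.36 between these. Its apical signals were 65.6, 65.5, 21.7, 43.5 and 13 and its caudal signals 73.1, 92.3, 91.5, 79.0 and 51.7.

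Asparagine synthetase ASNS, a target of ATF4, differed by -0.43 ± 0.09 (limma adjusted p = 0.0832). Its apical signals of 198, 176, 163, 171 and 175 did not overlap with caudal signals of 212, 296, 223, 244 and 247. The air animals' signals in these lobes lay between 140 and 171. The other 4 lower members were ATF4 (-0.18 ± 0.07) and the endoplasmic reticulum genes MANF (-0.44 ± 0.14), CRELD2 (-0.33 ± 0.12) and SDF2L1 (-0.37 ± 0.17).

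Among heat shock and chaperone genes, 17 of 21 were below 0, with a median of -0.13 and -0.05 in air. HSPA4 (-0.37 ± 0.08), the co-chaperone STIP1 (-0.25 ± 0.08) and the mitochondrial chaperones HSPA9 (-0.20 ± 0.06), HSPD1 (-0.16 ± 0.05) and HSPE1 (-0.17 ± 0.07) were among 8 lower at an unadjusted p under 0.05 (38.1%, against 7.12% of all probe sets). None was called. HSPA4 had apical signals of 195, 174, 205, 154 and 139 and caudal signals of 204, 227, 273, 218 and 219, with 1 apical signal above the lowest caudal one. Its other probe sets differed by -0.22 ± 0.09 and -0.23 ± 0.10, with animal 31 above 0 in both. Those of HSPA9 differed by -0.15 ± 0.08 and 0.37 ± 0.26, and the mean of all HSPA9 probe sets was 0.0071.

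Cell cycle genes had a median of -0.12, with 20 of 24 below 0 and -0.04 in air. The replication helicase genes MCM5 (-0.36 ± 0.08), MCM3 (-0.33 ± 0.08) and MCM2 (-0.39 ± 0.12) were 3 of the 6 lower at an unadjusted p under 0.05 (25%, against 7.12% of all probe sets). Other probe sets of MCM5 differed by -0.30 ± 0.10 and, near the array's lower quartile of signal, by 0.09 ± 0.25, and the mean of its probe sets was -0.19. MCM5 and MCM3 were also lower in the air animals, at -0.22 ± 0.10 and -0.26 ± 0.10. MCM5 signals were 81.3, 83.3, 62.4, 107 and 58.4 in the apical and 98.7, 111, 83.3, 134 and 95.2 in the caudal lobe.

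In growth and wound repair, ANKRD1 had the widest mean difference of the genes named here. It encodes an ankyrin repeat protein and is a target of YAP in stretched or injured cells. Its apical signals were 131, 185, 93.8, 417 and 204 and its caudal signals 274, 780, 303, 1024 and 553, lower in the apical lobe of each animal with overlapping groups. The difference was -1.43 ± 0.35 (limma adjusted p = 0.124), and -0.27 ± 0.45 in air, where no signal of these lobes exceeded 257. A dimmer probe set of the gene differed by -0.48 ± 0.21. The list of 29 genes had a median of -0.08, with 19 below 0. At an unadjusted p under 0.05, 3 were lower and 2 higher (17.2%, near the 13.1% of all probe sets), and none was called. Besides ANKRD1 these were LIF (-0.33 ± 0.12) and TNFRSF12A, lower, and the matrix proteases MMP2 (0.29 ± 0.08) and MMP14 (0.30 ± 0.12), higher.

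Simple epithelial keratins were lower in the apical lobe of 4 of 5 animals and higher in animal 31. KRT19 had apical signals of 328, 290, 246, 179 and 229 and caudal signals of 319, 333, 381, 267 and 333, a difference of -0.36 ± 0.09 (limma adjusted p = 0.134). KRT18 differed by -0.50 ± 0.13 and KRT8 by -0.33 ± 0.10. In air the 3 genes differed by 0.10 ± 0.12, -0.07 ± 0.17 and -0.05 ± 0.13. These keratins are made by airway cells and by mesothelium alike. The airway secretory and basal list had 4 of 13 above and 9 below 0, with a median of -0.05, against -0.04 in air. At an unadjusted p under 0.05, 4 were lower (30.8%, against 7.12% of all probe sets) and none was called. They were the 3 keratins and the protease inhibitor gene SLPI (-0.37 ± 0.13). The list's summed signal ranged from 6493 to 8253 in apical and from 7381 to 9678 in caudal lobes. Of the 4 mesothelium markers measured the others, CALB2 and WT1, were dim and not called, at 0.25 ± 0.17 and -0.09 ± 0.13, and the summed mesothelium signal ranged from 723 to 1484 in apical and from 793 to 1870 in caudal lobes. The part of mesothelium in the keratin values was not tested.

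Of the p53 target and DNA damage list, 13 of 19 measured genes were above 0 and the median was 0.07, the same as in air animals. At an unadjusted p under 0.05, 5 were higher (31.6% in either direction, against 13.1% of all probe sets): DDB2, the antiproliferative gene BTG2 (0.40 ± 0.09), SESN1 (0.24 ± 0.09), CCNG1 (0.15 ± 0.06) and the ribonucleotide reductase subunit RRM2B (0.13 ± 0.06). TP53I3 was lower (-0.29 ± 0.11). BTG2 had apical signals of 534, 523, 466, 371 and 725 and caudal signals of 395, 357, 409, 250 and 569, and also differed in air (0.29 ± 0.11). CDKN1A, the best known target, was not among them.

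MHC class II and dendritic cell genes were all above 0, 13 of 13, but by little: the median was 0.09, against 0.04 in air, and 2 were at an unadjusted p under 0.05 (15.4%, near the 13.1% of all probe sets). These were the antigen-presenting molecule SLA-DRB1 (0.17 ± 0.06) and XCR1 of cross-presenting dendritic cells (0.17 ± 0.07). Genes of this list are expressed by the same cells, so their signs are not independent. Of the neutrophil markers 7 of 11 were below 0 and 4, CXCL8 among them, above 0, with a median of -0.11, against -0.04 in air. Of the 4 brighter markers 2 were below 0, with a median of -0.02. At an unadjusted p under 0.05, 2 were lower (18.2%, against 7.12% of all probe sets lower and 13.1% in either direction), and none was called. S100A8 differed by -0.32 ± 0.12 and S100A9 by -0.20 ± 0.08, with S100A8 at 102 in the caudal lobe of animal 42 and between 35.4 and 47.8 in the other caudal lobes. Summed neutrophil marker signal ranged from 1742 to 2322 in apical and from 2016 to 2742 in caudal lobes.

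Xenobiotic enzymes held differences in both directions, with 4 higher and 3 lower of 27 at an unadjusted p under 0.05 (25.9%, against 13.1% of all probe sets). GSTA1, a glutathione transferase, had apical signals of 95.7, 103, 97.8, 69.7 and 17.3 and caudal signals of 80.3, 69.0, 65.2, 35 and 4.58. It differed by 0.53 ± 0.16 (limma adjusted p = 0.18), higher in the apical lobe of each exposed animal, and by -0.26 ± 0.20 in air. The carboxylesterase CES1 differed by -0.37 ± 0.09 in exposed and -0.53 ± 0.11 in air animals.

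The 22 striated and heart muscle markers had a median of -0.10, against -0.03 in air, and 3 were at an unadjusted p under 0.05 (13.6%, near the 13.1% of all probe sets), with ACTC1 and MYH7 lower and PLN higher (0.35 ± 0.15). The 5 brighter markers had a median of 0.04, with 2 below 0. ACTC1, the heart muscle actin, was lower in the apical lobe of all exposed and all air animals, by -0.65 ± 0.13 (limma adjusted p = 0.0658) and -0.93 ± 0.17, with apical signals of 17.7, 12.4, 11.8, 13.6 and 21.2 and caudal signals of 30.9, 34.6, 33.5, 28.5 and 37.8. MYH7, the slow muscle myosin, differed by -0.49 ± 0.13 and was dim. Of the 22, 14 were below 0 and 9 were dim, under the arrays' lower quartile of signal at 15.6. Their summed signal ranged from 860 to 1129 in apical and from 1003 to 1151 in caudal lobes of exposed animals. The lists of smooth muscle, ribosomal protein, NRF2 target, interferon, glucocorticoid response, fibroblast and endothelium genes had medians between -0.0063 and 0.05, and the sign of the ribosomal protein, interferon, fibroblast and endothelium medians changed with the scaling. The part of muscle in the other values was not tested.

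**Figure D5:**
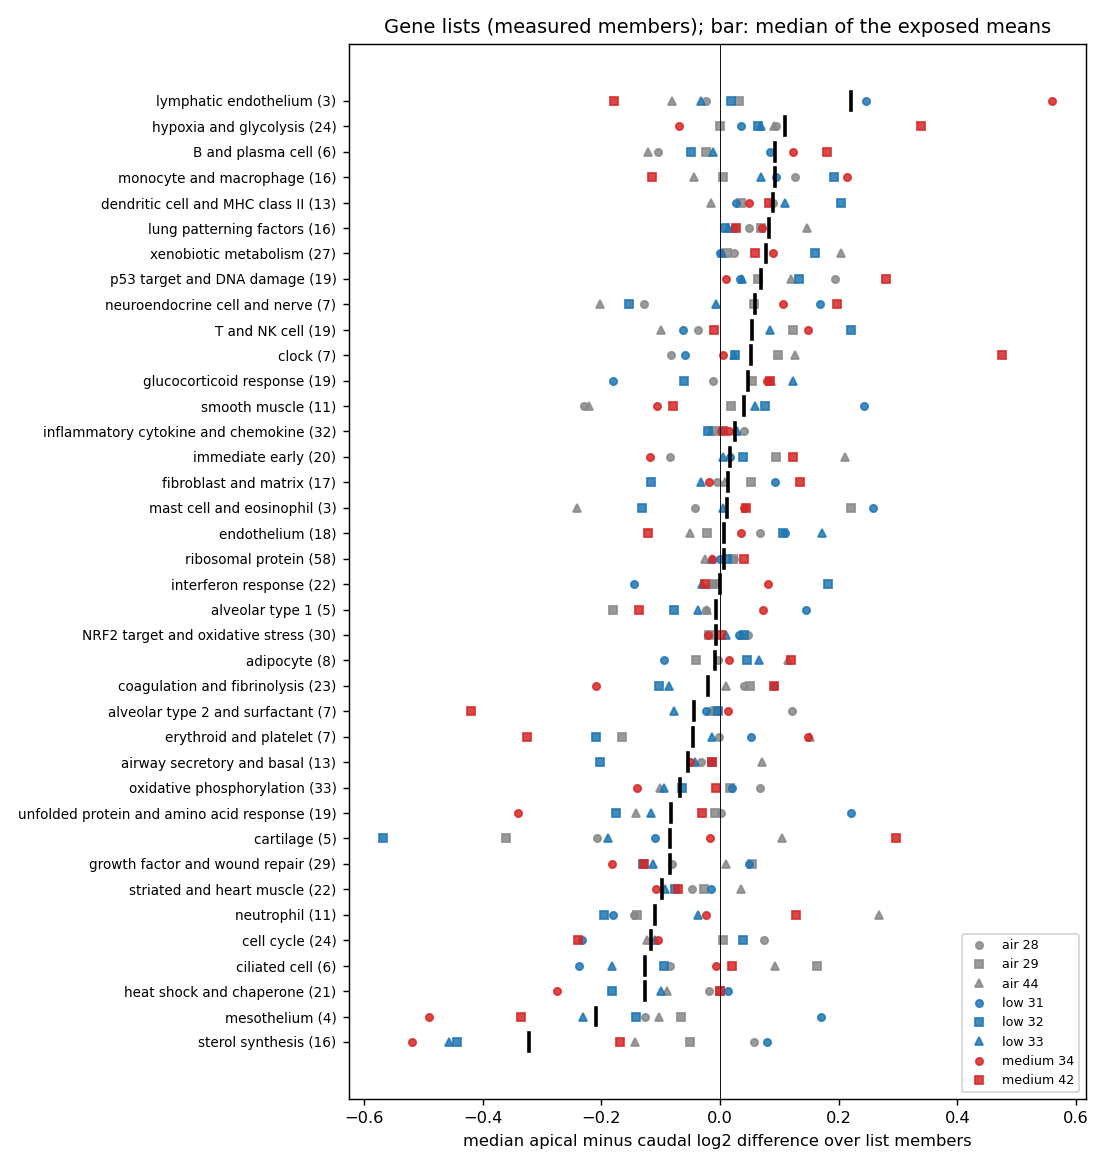
Median apical minus caudal log2 difference over the members of each of the 38 gene lists (number of measured members in parentheses), 1 point per animal and a black bar for the median of the means over 5 exposed animals. Sterol synthesis has the lowest bar, at -0.32, with animal 31 at 0.08 on the other side of 0.

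Animal 31 stood apart in the sterol, proline and keratin genes, with differences near or above 0 where the other animals were below 0. Over all 23999 probe sets animals 31 and 42 were both loosely related to the rest: the r of an animal's difference with the mean of the other 4 exposed animals was 0.09 and 0.05 in these, and 0.26, 0.23 and 0.21 in animals 32, 33 and 34. Air animals 28, 29 and 44 had an r of 0.26, 0.11 and 0.13 with the mean of the exposed animals. Values of this size were thus not confined to exposed animals. Animal 31 had an r of 0.36, 0.02 and -0.21 with air animals 28, 29 and 44. These r values are descriptions across probe sets, which are not independent. Animal 31 had the lowest RNA integrity index of the 10 arrays, -0.08 in its apical lobe, and the widest lobe difference of the index among exposed animals. The part of RNA quality in its values was not tested.

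Without animal 31, 44 genes with a symbol were called in the remaining 4 exposed animals, 12 higher and 32 lower in the apical lobe; the share called over all probe sets was 0.383% (0.142% higher and 0.242% lower). For sterol synthesis, 5 of 16 were called lower: CYP51 (-0.57 ± 0.08), HMGCS1 (-0.79 ± 0.12), FDPS (-0.80 ± 0.14), SC5D (-0.57 ± 0.11) and ACAT2 (-0.63 ± 0.12), with limma adjusted p from 0.0301 to 0.0483. PYCR1 (-1.26 ± 0.20), ASNS (-0.51 ± 0.10), KRT18 (-0.66 ± 0.13), KRT19 (-0.46 ± 0.09), HSPA4 (-0.45 ± 0.09), CTPS1 of CTP synthesis (-0.92 ± 0.18) and NHP2 of ribosomal RNA modification (-0.68 ± 0.13) were lower too. ITIH2 (0.75 ± 0.11), PIK3IP1 (0.78 ± 0.11), FBXO32 (0.87 ± 0.14), DDB2 (0.60 ± 0.11) and the cholesterol exporter ABCA1 (0.60 ± 0.11) were higher. Of the fits that left out 1 animal, this one gave the most calls. Animal 31 was the only exposed animal above 0 for HMGCS1, FDPS, PYCR1, KRT18 and KRT19. Leaving it out therefore favours calls of such genes, and these calls are no separate support for them. No label marks animal 31 as different from the other low animals, so the fit with all 5 animals remains the result.

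When only the 11999 probe sets with the higher mean signal were tested, 69 were called (0.575%), 33 higher (0.275%) and 36 lower (0.3%). They covered 35 genes with a symbol, 17 of which were also called without animal 31. CYP51, ASNS, MCM5, SDC1 and SFTPD were among those lower, and BTG2, VLDLR, S100B and FBXO32 among those higher.

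The air animals show how the lobes differed without sulfur mustard. In them limma called 0 probe sets, with 1017 (4.24%) at an unadjusted p under 0.05. The genes with the smallest p were UBXN10 (0.55 ± 0.10), CES1, FABP1 (0.33 ± 0.07), ACTC1 and SENP6 (-0.66 ± 0.15). The value of SENP6 rests on 1 probe set, since its other probe sets differed in air by -0.24, -0.03 and 0.05. Of these UBXN10, found in cilia, had air apical signals of 324, 247 and 314 and air caudal signals of 202, 184 and 202, while the exposed animals differed by 0.02 ± 0.08. FABP1 was near the floor of the array, with signals under 8 in these lobes.

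Whether the lobe difference itself differed between exposed and air animals was tested as an interaction. None of the 23999 probe sets was called, and 908 (3.78%) had an unadjusted p under 0.05. The 5 genes with the smallest p were FABP1, LRRC51 (-0.55 ± 0.12), UBXN10 (-0.53 ± 0.13), DDB2 (0.60 ± 0.16) and CD180 (-0.74 ± 0.20), a receptor of B cells. CD180 was lower in the apical lobe of 5 of 5 exposed animals and higher in that of 3 of 3 air animals. Its signals were low, from 5.24 to 38.5 in these lobes. For the 2 called probe sets the interaction was 0.43 ± 0.20 and 0.47 ± 0.19. No lobe difference was thus shown to be particular to exposed animals.

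The medium and low animals were also compared in their lobe difference, with 2 against 3 animals. None of the probe sets was called by limma, and 2101 (8.75%) had an unadjusted p under 0.05. LETM1 of the mitochondrial inner membrane (-0.75 ± 0.14), GNAZ (-1.44 ± 0.28), the cation transporter SLC22A3 (-0.56 ± 0.11), the nuclear envelope gene SYNE2 (0.62 ± 0.13) and the tRNA synthetase subunit FARSA (-0.57 ± 0.12) had the smallest p, with adjusted p of 0.426 or 0.429. GNAZ had low signals, from 6.98 to 34.3 in these lobes of the exposed animals, and its value ran from -2.69 to -0.94 over the alternative settings. SYNE2 had caudal signals of 437, 487 and 511 in the low animals and of 243 and 255 in the medium animals, and apical signals between 409 and 599. Its dimmer probe sets had medium minus low values of 0.19 and -0.03. Without animal 34, 3 probe sets were called, but the medium group was then animal 42 alone, with its spread assumed to be that of the other animals.

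The median lobe was not placed alike for all genes. In the exposed animals, apical minus median gave 0 called probe sets with 2946 (12.3%) at an unadjusted p under 0.05, and median minus caudal gave 0 with 1951 (8.13%). These comparisons share arrays with apical minus caudal. The sterol synthesis list had medians of -0.31 and 0.03 in them, and TNFRSF12A differed by -0.88 and 0.07. LOX, by contrast, differed by 0.26 and 0.43, and ITIH2 by 0.29 and 0.41.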

How the data were processed

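Total RNA of 28 lung samples was measured on single-colour Affymetrix porcine arrays. The values are the authors' deposited intensities, 1 per probe set, with a trimmed mean of 150 on every array; the summarization software is not given in the sources used here. Of 24123 probe sets, 124 controls were left out and 23999 tested. The annotation gave 10069 a single symbol, 198 several and 13732 none, and the brightest probe set over all arrays stood for each of 6765 symbols. The deposited intensities were converted to log2(signal + 16), a log2 scale, and quantile-normalized, since the arrays' lower quartiles spanned 0.316 log2 units.

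limma 3.58.1 in R 4.3.3 fitted 24 arrays of 8 animals, with the animal as a block and the lobe within air and exposed animals (12 residual degrees of freedom); p-values were adjusted by Benjamini-Hochberg over 23999 probe sets. The pairing comes from the titles, which give lobes of 1 animal the same number. With the animal as a block, differences in level between animals are removed. The p-values rest on how lobe differences vary from animal to animal, pooled over 3 lobes and over the air and exposed animals and moderated by limma. The RNA integrity index was tested without limma, by exact enumeration in R 4.3.3. Python 3.11.15 prepared the values and drew the figures. On simulated data the exposed comparison recovered 95 of 100 probe sets changed by 1 log2 unit and 74 of 100 changed by 0.5, with 11 other calls. The exposed minus air comparison recovered 73 and 28 of these, with 2 other calls. The simulated noise was independent between probe sets, and each change was the same in every exposed animal. These counts are therefore not the power for genes whose lobe difference varies between animals.

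Genes followed through the alternatives were the 10 with the smallest p, 10 injury and stress genes and 18 genes chosen after their values were seen. Added were the 5 with the smallest p in air, exposed minus air and medium minus low, and the 2 with the smallest p of each of 38 lists. The text names only some of the 2 per list, and further list members are named with their list. The list members named are thus a selection and not the outcome of a fixed rule. The members and lists were chosen with earlier results of these data known. Alternatives covered scaling, offset, filter, block, samples and RNA integrity; for the lists, the last 2 were added after seeing the data.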

Additional observations from a re-analysis of the deposited data

Results flagged for a closer look

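In 4 genes, animal 31 lay far from the other 4 exposed animals in its apical minus caudal difference. It had 0.17 for S100B, where the others had 0.48 to 0.60, and -0.0051 for the RNA-processing gene PNPT1, where the others had -0.79 to -0.57. For the sterol synthesis genes FDPS and HMGCS1 it had 0.25 and 0.28, where the others had -1.003 to -0.70 and -0.93 to -0.63. Chance puts about 1 in 20 groups so far apart, and these were 4 of 41 groups examined; genes of a pathway are not independent, and several of the 41 were chosen after their values were seen.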

How the results depend on the processing

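The number of called probe sets between lobes of exposed animals was 2 in the fit reported and 3 with the deposited scaling or median-centred arrays. It was 0 with an offset of 1, with only the 10 apical and caudal arrays, with the RNA integrity index as a covariate, with the animal as a random block over 28 arrays, and with no replicate block, which ignores the pairing of lobes. It was 9 with all 28 arrays, 17 with trend and robust moderation and 69 in the brighter probe sets; fewer probe sets are tested there, and the other causes were not tested. The differences of the 2 called probe sets stayed between 0.90 and 1.06 and between 0.78 and 0.93 under the 18 alternatives, so it was mainly their p that moved. Leaving out 1 animal at a time gave 0 to 92, with 92 without animal 31. For medium minus low it gave 0 to 3, with 3 without animal 34, where the medium group is 1 animal that is assumed to vary like the others. Air and exposed minus air stayed at 0 under every alternative run.

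Signs turned mainly for genes near 0. IL6 had 0.011 with the deposited scaling, 0.044 with the random block, 0.13 with all 28 arrays, 0.019 with the RNA covariate and -0.076 to 0.063 leaving out 1 animal. SFTPC had 0.0072 with the RNA covariate and -0.037 to 0.0011 leaving out 1 animal. The chemokine receptor gene CCR3 had 0.044 with the random block and -0.11 to 0.0036 leaving out 1 animal, and HSPA9 had 0.0071 as the mean of all its probe sets. In air, leaving out 1 animal gave -0.11 to 0.032 for DDB2 and -0.044 to 0.074 for SFTPD. The exposed minus air value of KLHDC3 was -0.027 with the random block, -0.011 with all 28 arrays and -0.032 to 0.090 leaving out 1 animal.

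Of the list medians, striated muscle moved to -0.056 with the RNA covariate (-0.13 to -0.022 leaving out 1 animal) and lung patterning to 0.054 with all 28 arrays. Median centring gave 0.00061 for inflammatory genes (0.011 to 0.069 leaving out 1 animal), -0.032 for NRF2 targets and -0.018 for ribosomal proteins. The cause was not tested. Genes near the array's floor, such as FABP1 and MYH7, are limited by signal over background.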

Other observations

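Further gene groups held single members with differences and no call by limma. Among smooth muscle genes, the potassium channel subunit KCNMB1 (0.35 ± 0.10) and phospholamban PLN (0.35 ± 0.15) were higher in the apical lobe of 5 of 5 exposed animals, and myosin kinase MYLK (0.47 ± 0.20) in 4 of 5. A second KCNMB1 probe set, near the array's floor, differed by -0.11 ± 0.08 and was lower in the apical lobe of 4 of 5. The list of 11 had a median of 0.04. Of 16 lung patterning factors 13 were above 0, with a median of 0.08, against 0.05 in air. MEIS2 differed by 0.42 in air and 0.35 ± 0.10 in exposed animals, and HOXA3 by 0.18 and 0.20 ± 0.09. A dim second MEIS2 probe set differed by -0.13 ± 0.23 in air and 0.40 ± 0.18 in exposed animals, so its sign in air was the opposite. The epithelial factor FOXA1 was lower in the apical lobe of 5 of 5 exposed animals (-0.21 ± 0.09, against -0.05 in air).

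Among inflammatory genes the B cell chemokine CXCL13 differed by 0.41 ± 0.14 in exposed and -0.35 in air animals. CXCL2, a neutrophil chemokine, differed by 0.54 ± 0.25 and 0.47, and TNF by -0.23 ± 0.09 and -0.25, so for these the lobes differed about alike in air. All 7 clock genes had means above 0, led by BHLHE40 (0.51 ± 0.23) and DBP (0.36 ± 0.13), and the list's median was 0.05 in exposed and 0.12 in air animals. Of oxidative phosphorylation genes 28 of 33 were below 0, but by a median of -0.07, and 2 (6.06%) were at an unadjusted p under 0.05.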
